A study of Mus musculus with 6 samples.

Results

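The genes described here make cholesterol, sense it and move it in and out of cells: 32 genes, chosen by name, of 30342 gene names on the array. They comprise 18 enzymes of cholesterol synthesis, 5 genes of sterol sensing and 9 genes of uptake, efflux, storage and intracellular transport. All 32 were found on the array, Msmo1 under its older name Sc4mol, and all 32 gave a signal well above background on all 6 arrays, so that none was removed by the filter on dim probes. Transcripts were measured in γδ T cells sorted from the spleen of Eomes-IRES-GFP mice (Eomestm1.1Twa, C57BL6 background), a reporter strain whose green fluorescent protein (GFP) is made from the locus of Eomes, a T-box factor gene. After depletion of B220-, CD4- and CD8β-bearing cells, cells that stained for CD3 and TCRγδ but not for TCRβ were sorted as GFP-positive (called Eomes-positive here) or GFP-negative (Eomes-negative). Every mouse carried the reporter, and the labels name no treatment. Each of 3 independent sorts drew on the spleens of 4 to 6 mice, aged 9, 9.5 and 7.5 weeks in sorts 1, 2 and 3, and gave 1 array of each group, so that n is 3 per group and each array is a pool of animals.

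Cells build cholesterol from acetyl-CoA through the mevalonate pathway, which leads to squalene, and then through lanosterol and a series of sterol intermediates. The transcription factor SREBP-2, encoded by Srebf2, switches these enzymes on together when sterol in the endoplasmic reticulum membrane is low. SCAP escorts it to the Golgi and the INSIG proteins hold it back. When sterol is plentiful, oxysterols and sterol intermediates activate the liver X receptors LXRα (Nr1h3) and LXRβ (Nr1h2), which switch on the efflux pumps ABCA1 and ABCG1 and the ubiquitin ligase encoded by Mylip, which degrades lipoprotein receptors. Lymphocytes raise sterol synthesis when they are activated and divide.

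A level here is the log2 processed intensity of a probe after subtraction of its array's 75th percentile on that scale. A difference is the Eomes-positive level less the Eomes-negative one, also in log2, and the error given after ± is the SD (n = 3 arrays). The 75th percentile before scaling was 1581 to 1684 intensity units in sorts 1 and 2, which used 9 ng of RNA, and 534 to 549 in sort 3, which used 4 ng, and 47.7 to 56.6% of probes per array were well above background. The signal of Eomes, the gene behind the sort, was 27.1-fold greater in cells sorted as GFP-positive (limma adjusted p = 0.0178). The T cell genes Cd3d, Cd3e, Cd3g and Cd247 were well above background on all 6 arrays and differed by -0.28 to -0.06, while Trdc, the δ chain constant gene, was not found under that name. Markers of other cells were present at levels that differed between arrays. The summed signal of 15 macrophage and monocyte markers, in units of the 75th percentile, was 5.60, 80.8 and 14.9 in Eomes-positive and 23.3, 169 and 8.54 in Eomes-negative arrays 1, 2 and 3. It was therefore lower in the Eomes-positive array of sorts 1 and 2 and higher in that of sort 3, and 0 of the 14 tested passed the limma test, with 0 at an unadjusted p under 0.05. The sum over 7 B cell markers was 9.48 to 18.8 against 15.7 to 23.8, and the sum over 4 αβ T cell markers was 2.30 to 2.54 against 6.37 to 9.23, with Cd8b1 the 1 member that fell. The sum over 7 NK cell markers, a list that includes Eomes, was 53.3 to 95.7 against 11.0 to 57.0, with 2 members that rose, Eomes itself and Klrb1b. Of the defining markers Csf1r was well above background on all 6 arrays, and Pax5 and Ebf1 on 2 each. The part of these markers in the sterol gene results was not tested, beyond the values given beside them.

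The promoter sequences of 6 members are shown because these genes carry the pattern described below. Mvd, Sc5d and Cyp51 are synthesis enzymes that were lower in Eomes-positive cells. Hmgcs1 is the member with a match to the sterol regulatory element letters in the window searched. Abca1 and Mylip are LXR targets that were higher. Each is the 250 bases before the RefSeq start site in the GRCm38.p6 build, 5′ to 3′. Capitals mark matches, on either strand, to the letters TCACNCCAC (a sterol regulatory element, bound by SREBP), CCAAT (the CCAAT box, bound by NF-Y) or GGGCGG (the GC box, bound by Sp1).
Mvd (chr8:122443423-122443672, minus strand): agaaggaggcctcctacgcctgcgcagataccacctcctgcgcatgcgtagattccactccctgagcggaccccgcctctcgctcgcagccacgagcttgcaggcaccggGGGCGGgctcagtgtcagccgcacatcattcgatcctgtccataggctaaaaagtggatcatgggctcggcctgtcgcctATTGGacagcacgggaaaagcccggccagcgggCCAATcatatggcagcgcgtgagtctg
Sc5d (chr9:42264301-42264550, minus strand): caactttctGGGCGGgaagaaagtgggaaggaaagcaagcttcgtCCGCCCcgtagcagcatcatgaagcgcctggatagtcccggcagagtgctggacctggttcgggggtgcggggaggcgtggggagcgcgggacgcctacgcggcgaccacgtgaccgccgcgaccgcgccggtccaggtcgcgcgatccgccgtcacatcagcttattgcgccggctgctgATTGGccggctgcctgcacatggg
Cyp51 (chr5:4104698-4104947, minus strand): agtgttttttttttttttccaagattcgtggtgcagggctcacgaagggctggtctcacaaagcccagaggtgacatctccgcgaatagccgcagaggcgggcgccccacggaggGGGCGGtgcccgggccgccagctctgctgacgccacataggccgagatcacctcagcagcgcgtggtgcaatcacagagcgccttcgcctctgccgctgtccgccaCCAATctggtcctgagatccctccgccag
Hmgcs1 (chr13:119690101-119690350, plus strand): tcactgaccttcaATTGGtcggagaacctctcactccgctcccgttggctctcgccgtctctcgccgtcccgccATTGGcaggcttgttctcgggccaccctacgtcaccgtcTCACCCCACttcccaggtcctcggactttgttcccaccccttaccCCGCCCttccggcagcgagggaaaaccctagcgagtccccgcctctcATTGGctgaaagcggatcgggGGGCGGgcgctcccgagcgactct
Abca1 (chr4:53159896-53160145, minus strand): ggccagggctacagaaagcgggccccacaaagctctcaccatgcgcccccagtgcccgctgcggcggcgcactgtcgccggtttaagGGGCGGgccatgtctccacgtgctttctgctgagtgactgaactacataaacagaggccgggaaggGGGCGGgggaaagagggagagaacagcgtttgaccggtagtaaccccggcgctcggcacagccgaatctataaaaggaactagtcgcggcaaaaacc
Mylip (chr13:45389492-45389741, plus strand): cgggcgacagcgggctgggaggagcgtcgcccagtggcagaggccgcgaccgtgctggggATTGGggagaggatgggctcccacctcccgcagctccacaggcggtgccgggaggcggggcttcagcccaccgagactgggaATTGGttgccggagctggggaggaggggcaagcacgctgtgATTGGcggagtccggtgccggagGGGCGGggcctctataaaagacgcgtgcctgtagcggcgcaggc
Of the 32 members, 26 had such a window in the RefSeq table, among them 15 of the 18 synthesis genes, while Fdps, Fdft1, Sqle, Abcg1, Stard4 and Npc1 had none there. Where a gene had several windows, a match in any of them was counted. The CCAAT letters were found in 14 of the 15 synthesis genes, against 40.1% of the 10341 tested genes with a window and 37.5% of all 27025 genes with one. The GC box letters were in 14 of 15, against 59.9% of tested genes and 35.4% of all. The sterol regulatory element letters were in 1 of 15, Hmgcs1, where they lie 137 bases before the start, against 1.22% of tested genes and 1.22% of all. Of the 6 uptake, efflux and storage genes with a window, 3 held CCAAT and 3 the GC box, and of the 5 sensing genes 4 and 5 did. None of the sensing, uptake, efflux or storage genes held the TCACNCCAC letters in this window. In the windows printed, no match overlapped a match to another of the motifs. These matches describe the letters and do not show binding, and other forms of the sterol regulatory element were not searched for.

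Nearly every member that encodes an enzyme of cholesterol synthesis had a lower signal in Eomes-positive than in Eomes-negative γδ T cells. Of the 18 synthesis genes, 17 were lower in the Eomes-positive array of all 3 sorts, against 27.1% of the 16413 genes tested, and the exception was Dhcr7. The median difference over the 18 was -0.64, which is 1.55-fold lower, against -0.01 over all genes tested, and it was -0.92, -0.54 and -0.56 in sorts 1, 2 and 3. With the slide as a block it was -0.70, and within slides 1 and 3, the 2 slides that held both groups, it was -0.73 and -0.56. The arrays of sort 2 lay on different slides, Eomes-negative on slide 1 and Eomes-positive alone on slide 2. Group and slide therefore cannot be told apart in the differences of sort 2. The LXR targets Abca1, Abcg1 and Mylip were higher in Eomes-positive cells in all 3 sorts, although some other LXR targets were not. In 13 of the 18 synthesis genes the highest Eomes-positive array lay below the lowest Eomes-negative array, against 9.68% of all genes, and over the 32 members this held for 16, with 3 separated the other way (8.53% of all genes). Of the 32 differences, 25 were below 0, against 51.6% over all genes, and 5 members were higher in all 3 sorts, against 25.3%. In these bulk samples, fewer cells that express a gene and less RNA per cell cannot be told apart.

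With group as the only term, limma called 0 of the 32 members at an adjusted p under 0.05 over all genes, against 2.77% of all genes, while 18 had an unadjusted p under 0.05 (12.2% of all genes), 15 lower and 3 higher (6.32% and 5.92%). Arrays with the same sort number deviated together from their group means (correlations of 0.808 to 0.818), and with the sort as a block limma called 8 members against 7.98% of all genes, 6 of them lower and 2 higher (4.33% and 3.66% of all genes). The members that fell in that fit were Pmvk, Mvd, Fdps, Cyp51, Sc5d and Soat1, and those that rose were Abca1 and Mylip. With the slide as a block, 2 members, Sqle and Mvd, were called lower (limma adjusted p = 0.0445 and 0.0419), against 1.55% of all genes (2.61% in either direction). The calls made with the sort as a block rested on all 3 sorts: without sort 1 or without sort 3 that fit called 0 members, with 17 and 22 at an unadjusted p under 0.05 (3487 and 3456 of the 16413 genes), and without sort 2 it called 1, Sqle (limma adjusted p = 0.0269). An exact permutation test of 3 arrays against 3 cannot go below p = 0.1 and was not used.

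**Figure D1:**
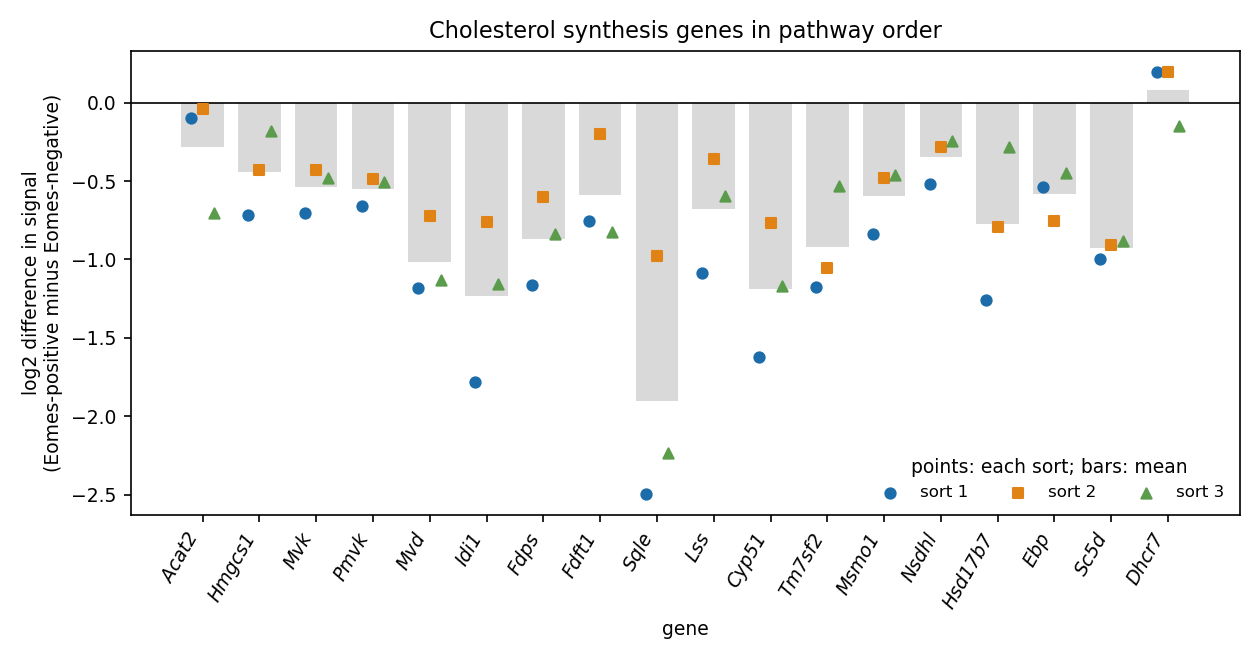
Log2 difference in signal, Eomes-positive minus Eomes-negative, for the 18 synthesis genes in the order of the pathway, with a point for each of the 3 sorts and a bar for their mean. All points but those of Dhcr7 in sorts 1 and 2 lie below 0, and Sqle has the lowest mean, -1.90.

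The genes of the early, mevalonate part of the pathway were lower in all 3 sorts. Acat2, which joins acetyl-CoA units, and Hmgcs1, which makes HMG-CoA, had small differences of -0.28 and -0.44. Hmgcs1 stood at 3.00, 2.69 and 2.61 in Eomes-positive and at 3.72, 3.12 and 2.79 in Eomes-negative arrays 1, 2 and 3. These ranges overlapped, although each sort gave a lower value in Eomes-positive cells (limma adjusted p = 0.697, or 0.148 with the sort as a block). Mevalonate kinase, Mvk, was at 0.94, 1.01 and 0.67 against 1.64, 1.45 and 1.15. Its difference of -0.54 (SE 0.19) had a limma adjusted p of 0.316, and the groups did not overlap. Phosphomevalonate kinase, Pmvk, was at 1.20, 1.39 and 1.23 against 1.86, 1.87 and 1.74, which are tight and separate groups. Pmvk differed by -0.55 (SE 0.13, limma adjusted p = 0.127) and fell in the fit blocked by sort (SE 0.09, adjusted p = 0.0489).

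The steps that make and use the isoprenoid building blocks differed more. Mvd, which decarboxylates mevalonate diphosphate, was at -0.79, -0.45 and -0.25 in Eomes-positive and at 0.39, 0.27 and 0.88 in Eomes-negative arrays. All Eomes-negative arrays lay above all Eomes-positive ones, and the mean level was 2.02-fold lower in Eomes-positive cells (-0.50 ± 0.27 against 0.51 ± 0.32, n = 3 each). Its difference of -1.01 (SE 0.24, limma adjusted p = 0.112) passed the test in the fit blocked by sort (adjusted p = 0.0292). Idi1, the isomerase that makes the allylic unit, was at 0.40, 0.75 and 0.46 against 2.18, 1.51 and 1.61. This was 2.35-fold lower, a difference of -1.23 (SE 0.23), with a limma adjusted p of 0.0608, or 0.0557 in the blocked fit. The farnesyl diphosphate synthase gene Fdps was at 1.42, 1.62 and 1.53 against 2.58, 2.22 and 2.36, again without overlap. Fdps differed by -0.87 (SE 0.16, limma adjusted p = 0.0548, or 0.0455 with the sort as a block).

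From squalene onward, Sqle had the greatest difference of all 32 members. Sqle, squalene epoxidase, a flux-controlling oxygen-dependent enzyme, was at -0.91, -0.10 and -1.28 in Eomes-positive and at 1.59, 0.88 and 0.95 in Eomes-negative arrays. Its signal was 3.74-fold lower in Eomes-positive cells (difference -1.90, SE 0.36), and the gap was -2.50 and -2.23 in sorts 1 and 3 and smaller, -0.98, in sort 2. The limma adjusted p was 0.0652, or 0.0528 with the sort as a block, and it was 0.0495 without Eomes-positive array 2, the Eomes-positive array with the highest Sqle level. Fdft1, squalene synthase, was at 0.57, 0.70 and 0.21 against 1.32, 0.90 and 1.03, a difference of -0.59 (SE 0.20, limma adjusted p = 0.287). A second Fdft1 probe was not well above background on any array, and averaging it in turned the difference to 0.21. Lss, which closes the ring to lanosterol, was at -3.03, -2.50 and -2.78 against -1.95, -2.14 and -2.18. Its groups did not overlap, and it differed by -0.68 (SE 0.19, limma adjusted p = 0.179).

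The members that trim lanosterol were lower as well. Cyp51, which removes the first methyl group, was at -2.03, -1.89 and -2.52 in Eomes-positive and at -0.41, -1.13 and -1.35 in Eomes-negative arrays. That is 2.28-fold lower, a difference of -1.19 (SE 0.31, limma adjusted p = 0.154), and Cyp51 passed the test in the fit blocked by sort (adjusted p = 0.0444). Tm7sf2, a sterol reductase, was at -0.88, -0.59 and -0.83 against 0.30, 0.46 and -0.30, and its second probe, well above background on all 6 arrays, gave -0.86 beside -0.92. Lbr, a second gene for that reductase step from the list of other sterol genes, was brighter and was not lower. It was at 4.97, 4.52 and 4.38 against 4.94, 4.45 and 4.27 (difference 0.07, limma adjusted p = 0.990). Hsd17b7, a ketoreductase of the same step series, was at -2.89, -2.81 and -2.71 against -1.63, -2.02 and -2.43. The Hsd17b7 difference was -1.26, -0.79 and -0.28 in sorts 1, 2 and 3, and a second probe well above background on all 6 arrays gave -0.69, -0.78 and 0.27, so that sort 3 did not show the difference on both probes. Msmo1 (-0.59) and Nsdhl (-0.35) were lower in every sort, but their groups overlapped. A second, dimmer Nsdhl probe, well above background on 4 arrays, was higher in every sort, by 0.05, 0.08 and 0.43.

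At the late, sterol-modifying steps the genes parted. Ebp, the sterol isomerase, was at 4.04, 3.93 and 3.74 against 4.57, 4.68 and 4.19, a difference of -0.58 (SE 0.19, limma adjusted p = 0.262, or 0.0562 with the sort as a block). Sc5d, the desaturase that follows it, was at 1.13, 0.83 and 0.74 against 2.13, 1.74 and 1.62. Sc5d was the most even of the synthesis genes across sorts (-0.998, -0.908 and -0.882). Its level was 1.90-fold lower (SE 0.20, limma adjusted p = 0.0922) and fell in the fit blocked by sort (SE 0.09, adjusted p = 0.0164). Dhcr7, the reductase that turns 7-dehydrocholesterol into cholesterol, was at -0.91, -0.84 and -0.56 against -1.10, -1.04 and -0.41. Its groups overlapped, with differences of 0.19, 0.20 and -0.15 by sort and a mean of 0.08 (SE 0.24, limma adjusted p = 0.986).

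Of the cell-cycle markers fixed as a list, 13 of 14 were tested and 0 passed the limma test, with 0 at an unadjusted p under 0.05. In the fit blocked by sort 2 of them fell, Top2a and Birc5, against 4.33% of all genes. Their median difference was -0.68, with a range of -1.52 to 0.55, and 8 of the 13 were lower in all 3 sorts, against 27.1% of all genes. Of the marker sums, those of B cells (9.48, 13.4 and 18.8 against 15.7, 18.4 and 23.8) and of αβ T cells (2.30, 2.49 and 2.54 against 9.23, 6.37 and 8.49) were lower in the Eomes-positive array of every sort, as were 17 of the synthesis genes, and the macrophage sum was lower in that of sorts 1 and 2. The B cell markers did not share a direction: of 5 tested, 2 were lower and 1 higher in all 3 sorts (27.1% and 25.3% of all genes). Cd79b, the brightest of them on each Eomes-negative array, was at 2.72, 3.11 and 3.07 in Eomes-positive against 3.76, 3.87 and 4.04. Cd22 was at 1.27, 1.39 and 3.20 against 0.31, 0.75 and 2.70. Among 4 αβ T cell markers tested, 3 were lower and 0 higher in all 3 sorts. Cd8b1, the brightest of the 4 on each Eomes-negative array, was at -0.09, 0.15 and -1.03 in Eomes-positive against 2.93, 2.23 and 2.44. Tcra, from the same list, was lower in the Eomes-positive array of sort 1 and higher in that of sorts 2 and 3 (difference 0.18). The part of cell division or of these other cells in the synthesis result was not tested.

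The genes that sense sterol differed less, with a median of -0.30 over 5, and 0 of the 5 passed the limma test with or without the block, with 0 at an unadjusted p under 0.05 in the fit on group alone. Srebf2, which encodes SREBP-2, was at 1.16, 1.11 and 1.30 in Eomes-positive and at 1.70, 1.30 and 1.88 in Eomes-negative arrays. The groups did not overlap, but the difference of -0.44 (SE 0.19) did not pass the test (limma adjusted p = 0.467, or 0.122 with the sort as a block), and a second Srebf2 probe gave -0.37. Scap, the escort protein gene, had differences of -0.22, -0.29 and -0.38 in the 3 sorts. Srebf1, whose products act mainly on fatty acid genes and which is itself an LXR target, was at -2.47, -2.40 and -2.26 against -2.36, -2.60 and -2.12. Its difference of -0.01 (SE 0.17, limma adjusted p = 0.997) had no stable sign: it was 0.09 with median scaling, and it turned positive without sort 1 or sort 3 and without the first Eomes-positive or the third Eomes-negative array.

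The INSIG genes, whose products retain SCAP in the endoplasmic reticulum, had differences of opposite sign, neither past the test. Insig1, an SREBP target, was at -1.18, -1.80 and -2.25 against -0.57, -0.72 and -1.72. Insig1 was lower in each sort, with differences of -0.61, -1.08 and -0.53, but the spread between sorts made the groups overlap (limma adjusted p = 0.635, or 0.0662 with the sort as a block). Insig2 was higher by 0.17, 0.51 and 0.18 (mean 0.29, SE 0.19, limma adjusted p = 0.726). A second Insig2 probe gave 0.18.

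**Figure D2:**
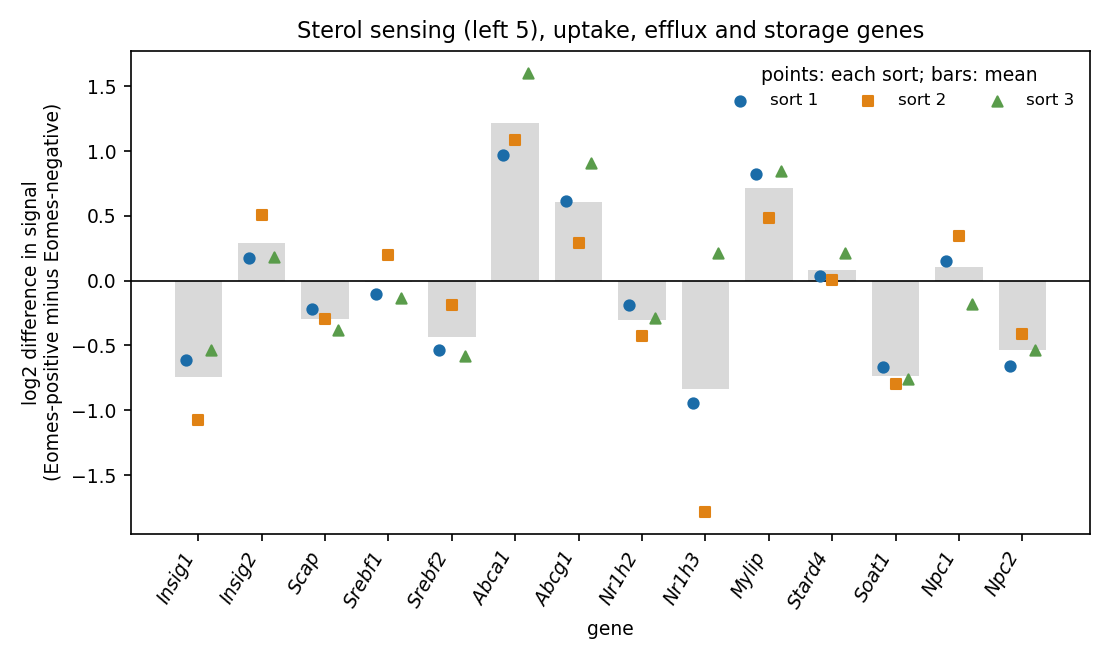
Log2 difference in signal, Eomes-positive minus Eomes-negative, for the 5 sensing genes on the left and the 9 uptake, efflux and storage genes, with a point for each sort and a bar for the mean. Abca1, Abcg1, Mylip, Insig2 and Stard4 lie above 0 in all 3 sorts, Insig1, Scap, Srebf2, Nr1h2, Soat1 and Npc2 lie below 0 in all 3, and Nr1h3 spreads from -1.78 in sort 2 to 0.22 in sort 3.

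Of the genes of efflux and uptake, the LXR targets Abca1, Abcg1 and Mylip had higher levels in Eomes-positive cells. Some other LXR targets did not. Srebf1 was at a difference of -0.01. Pltp, a phospholipid transfer protein, and Lpcat3, a phospholipid-remodelling enzyme, had differences of -1.42 and -0.64 (limma adjusted p = 0.329 and 0.129). Pltp and Lpcat3 are from the list of other sterol genes and were named after their values were seen, and LXR targets were not surveyed as a set. Abca1, the pump that loads cholesterol onto apolipoproteins, was at 1.28, 1.02 and 1.10 in Eomes-positive and at 0.31, -0.07 and -0.51 in Eomes-negative arrays. The groups did not overlap, and the mean was 2.33-fold higher in Eomes-positive cells (1.13 ± 0.13 against -0.09 ± 0.41, n = 3 each). The difference of 1.22 (SE 0.24, limma adjusted p = 0.0689) passed the test with the sort as a block (SE 0.16, adjusted p = 0.0292). Mylip, the lipoprotein receptor ligase, was at 3.54, 3.05 and 3.28 against 2.72, 2.57 and 2.43. It was 1.64-fold higher (SE 0.18, limma adjusted p = 0.143, or 0.0466 with the sort as a block), and its second probe gave 0.64 beside 0.72. Abcg1, the pump that acts on high-density lipoprotein, was at 3.06, 3.01 and 2.95 against 2.45, 2.71 and 2.04. Its Eomes-positive arrays were close together and all above the Eomes-negative ones, with a difference of 0.60 (SE 0.20, limma adjusted p = 0.290, or 0.101 with the sort as a block).

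The receptor genes that drive these targets did not pass the test. Nr1h2, the LXR gene expressed broadly, differed by -0.30 (SE 0.33, limma adjusted p = 0.907) and was lower in each sort. Nr1h3, the LXR gene typical of macrophages, was at -2.41, -0.56 and -2.24 against -1.47, 1.23 and -2.45. It was highest in both arrays of sort 2, and its differences were -0.94, -1.78 and 0.22 by sort. The macrophage complement gene C1qa, at -2.11, 2.05 and -1.42 against 1.65, 4.25 and -2.98, was likewise lower in the Eomes-positive array of sorts 1 and 2 and higher in that of sort 3. Not all macrophage and monocyte markers followed C1qa. Of 14 tested, Lyz2 was higher and Timd4 lower in all 3 sorts (25.3% and 27.1% of all genes). Lyz2 was at 0.67, 5.28 and 2.95 against 0.12, 5.22 and 2.37. Nr1h3 did not pass the test (limma adjusted p = 0.935). The NK cell sum was higher in the Eomes-positive array of every sort (64.3, 95.7 and 53.3 against 15.3, 57.0 and 11.0), as were Abca1, Abcg1 and Mylip, and the macrophage sum was higher in that of sort 3. The NK cell list includes Eomes, at 5.31, 4.96 and 4.48 against 0.72, 0.88 and -1.14, so much of the rise in its sum was fixed by the sort. All 7 markers of that list, of which Eomes was fixed by the sort, were higher in every sort, against 25.3% of all genes. The part of NK cells and macrophages in these results was not tested.

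Among the members, the gene for storage and one of those for lysosomal export were lower. Soat1, which esterifies cholesterol for storage, was at -2.22, -2.08 and -1.93 in Eomes-positive and at -1.55, -1.29 and -1.17 in Eomes-negative arrays. Its differences were even, -0.67, -0.80 and -0.76 by sort, so that Soat1 was 1.67-fold lower (SE 0.17, limma adjusted p = 0.106) and fell in the fit blocked by sort (SE 0.09, adjusted p = 0.0247). Soat2, a second esterifying gene from the list of other sterol genes, was brighter and was higher in all 3 sorts. It was at -0.20, -0.40 and -0.34 against -0.64, -0.70 and -0.52 (difference 0.31, limma adjusted p = 0.473). Npc2, the soluble lysosomal sterol carrier, was at 4.26, 4.66 and 4.50 against 4.92, 5.07 and 5.03. That difference of -0.54 (SE 0.16) had a limma adjusted p of 0.213, or 0.0573 with the sort as a block, while Npc1, its membrane partner, differed by 0.10 with a sign that varied by sort. Stard4, a carrier of sterol between membranes, was lower in both arrays of sort 3 (-2.57 and -2.35) than in those of sorts 1 and 2 (-0.87 to -0.80). Its 2 probes disagreed, at 0.09 for the brighter one and -0.55 for the other, each well above background on all 6 arrays, so that no direction is given for Stard4.

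Over the 9 genes of uptake, efflux, storage and transport, the median difference was 0.09, with 4 higher and 3 lower in all 3 sorts. The 4 include Stard4, whose brighter probe is also the median value and whose other probe had the opposite sign. The median had no stable sign: it was -0.23 with the mean of all probes of a gene and between -0.18 and 0.39 when 1 array or sort was left out. The synthesis median less the median of these 9 genes was -0.96, -0.55 and -0.78 in sorts 1, 2 and 3, which is a description of these members, with no test. Of the 12 members with more than 1 probe, 9 other probes were well above background on all 6 arrays, and 8 of these had the sign of the probe used. The exception was Stard4. The second Nsdhl probe, well above background on 4 arrays, also had the opposite sign.

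**Figure D3:**
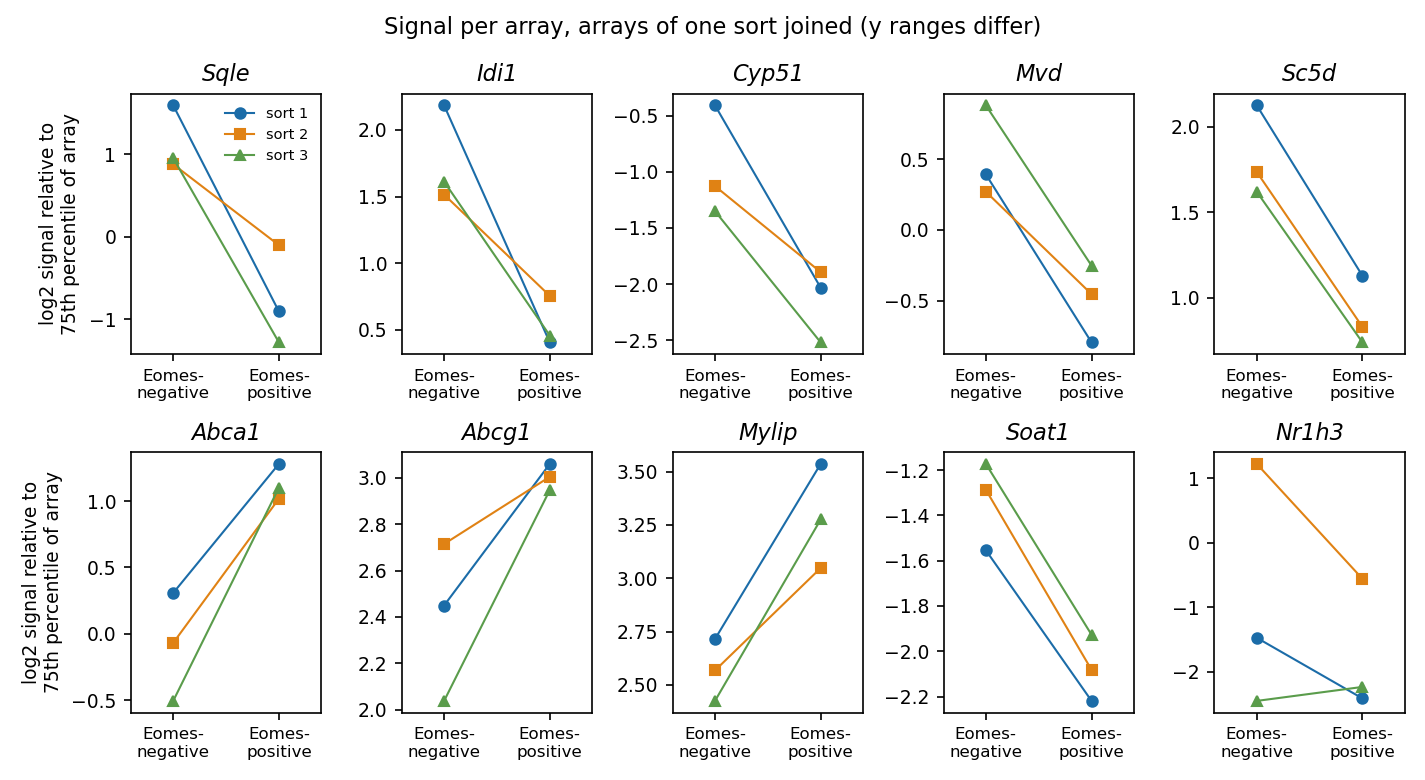
Log2 level (probe signal over the array's 75th percentile) on each of the 6 arrays for 10 members, with the 2 arrays of a sort joined by a line. Sqle, Idi1, Cyp51, Mvd, Sc5d and Soat1 go down from Eomes-negative to Eomes-positive in every sort, Abca1, Abcg1 and Mylip go up in every sort, and Nr1h3 goes down in sorts 1 and 2 only.

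**Figure D4:**
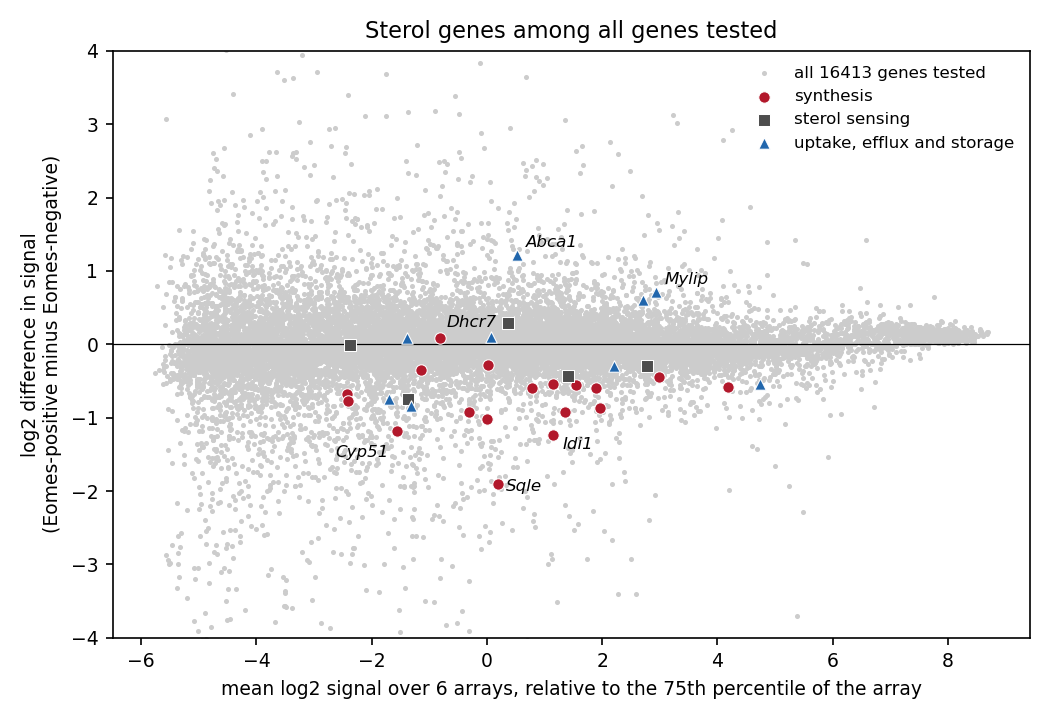
Log2 difference, Eomes-positive minus Eomes-negative, against mean log2 signal over the 6 arrays for the 16413 genes tested (grey), with the 32 members in colour by role. The vertical axis stops at 4 and -4, which leaves 96 other genes out of view, and all synthesis genes but Dhcr7 lie below 0 across the range of signal.

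A longer list of other sterol genes, which covered other synthesis and isoprenoid enzymes, lipoprotein receptors, sterol carriers, oxysterol metabolism and fatty acid targets of the same factors, was also examined. Of 83 found on the array, 73 were tested, and limma called 1 higher and 3 lower (1.20% and 1.57% of all genes). The 1 called higher was Ch25h, which entered the test only through the group where it is high. At an unadjusted p under 0.05, 6 were higher and 9 lower (5.92% and 6.32% of all genes). Its median difference was -0.04, near that of all genes, and 25 were lower and 20 higher in all 3 sorts (27.1% and 25.3% of all genes). In the blocked fit 2 of the 73 were called higher, Ch25h among them, and 6 lower (3.66% and 4.33% of all genes).

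Sterols also act as signals, and Ch25h, Rora and Osbpl3 bear on this. Ch25h, which makes 25-hydroxycholesterol, was well above background on all 3 Eomes-positive arrays (-3.89, -4.61 and -3.61) and on 0 of the 3 Eomes-negative ones. The Eomes-negative level was bounded, on each array, by the dimmest probe flagged well above background or by the Ch25h signal where that was brighter. Against this bound Ch25h was at least 4.37-fold higher in the main processing, which is 2.13 in log2. With normexp background its difference was 0.93, smaller than this bound, so the size depends on the background correction. Ch25h entered the test only through its Eomes-positive arrays, so no p is given for it. Rora, a nuclear receptor for which sterols are ligands, was at -0.03, -0.68 and -0.78 against 1.90, 1.90 and 1.41. Rora fell 4.70-fold (difference -2.23, SE 0.27, limma adjusted p = 0.0155, or 0.00929 in the blocked fit), and Osbpl3, an oxysterol-binding protein family member, fell 3.78-fold, from 0.84, 1.60 and 1.45 to -0.67, -0.41 and -0.78 (difference -1.92, SE 0.24, adjusted p = 0.0194, or 0.0141 in the blocked fit). In the fit on group alone, the calls of Rora and Osbpl3 were lost without any 1 of the sorts (limma adjusted p up to 0.221 and 0.184) and held in 2 and 1 of the 6 fits without 1 array. In the blocked fit, Rora passed without sort 2 (adjusted p = 0.0318) and Osbpl3 without sort 1 (adjusted p = 0.0499), and neither passed in the other fits without a sort. Without a sort the differences were -2.38 to -2.06 for Rora and -2.12 to -1.77 for Osbpl3. Osbpl3 did not pass with the slide as a block (adjusted p = 0.0613), and the Rora difference was -1.07 with the mean of all its probes.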

How the data were processed

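RNA from 6 sorted γδ T cell samples was amplified in 1 round and hybridised to one-colour Agilent arrays. The deposited scanner files give spot intensity from Agilent Feature Extraction 10.7.3.1, which subtracted background and detrended each array per the file headers. They also give a flag per spot for signal well above background. The authors' value table of the same arrays, with intensity scaled to a like 75th percentile, was used as an alternative, and its floor and spot averaging are not given in the sources used here.

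From the deposited intensity, control and outlier spots were left out, the 4 spots of a probe were averaged, and log2 values were taken relative to the array's 75th percentile. Each gene was represented by its brightest probe. The 16413 genes well above background (50% of spots) on at least 3 arrays were tested with limma 3.58.1 (R 4.3.3), with group as the only term and Benjamini-Hochberg adjustment over all of them, at a threshold of 0.05. The number of arrays, 3 per group, limits the precision. The scripts were tested on simulated data, and figures were drawn with Python 3.11.15 and matplotlib 3.10.9.

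The replicate numbers mark the sort: arrays with the same number share the age of the mice and the RNA input in the labels. Their deviations from the group means correlated at 0.812, 0.818 and 0.808, so the samples were taken as paired by sort. Other pairs gave -0.569 to -0.260. Their negative sign follows in part from the subtraction of a mean of 3 arrays, so it is not separate evidence of pairing. The fit with the sort as a block is given where it changes the call of a sterol gene and for some other genes. In that fit 1 of 5 B cell and 2 of 4 αβ T cell markers tested fell (4.33% of all genes). Of 7 NK cell markers, 3 rose, Eomes among them (3.66% of all genes). The alternatives were the sort and the slide as blocks, other scalings, background corrections and filters, the mean of all probes, and leaving out each array or sort.

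The members and gene lists were chosen with earlier results of these data known. Array values are given for members past a test, for those with an unadjusted p under 0.05 and for 7 members regardless (Hmgcs1, Sqle, Srebf1, Srebf2, Insig1, Abca1 and Abcg1), and at most 6 other sterol genes past the test without the block are named. Stard4, Nr1h3, Dhcr7, Pltp, Lpcat3, the cell-cycle genes and the other sterol genes called only with the block were singled out after their values were seen. So were Soat2, Lbr, C1qa, Lyz2, Timd4 and Tcra. Other cell marker lists, for dendritic cells, erythroid cells and platelets, gave 0 calls of 4, 4 and 1 tested, with 0 at an unadjusted p under 0.05 in each. Of 8 T cell and γδ genes, 2 fell and 0 rose (1.57% and 1.20% of all genes). Single results that bear on withheld items are not reported here.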

Additional observations from a re-analysis of the deposited data

How the results depend on the processing

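The synthesis median was lower in Eomes-positive cells under every setting run, from -0.78 to -0.52, with 16 to 18 of 18 genes below 0. The number of members called was 0 in the fit on group alone, 8 with the sort as a block, 2 with the slide as a block, 1 with genes measured on all 6 arrays (Fdps), and 0 to 1 with an array or sort left out, the 1 being Sqle without Eomes-positive array 2. Settings joined to the sort block after seeing the data gave 5 members with median scaling, 6 with quantile normalization, 16 with normexp background, 7 with the deposited value table, 8 with the mean of all probes, 16 with genes measured on all 6 arrays, and 0 to 1 with a sort left out. Over all genes, 454 were called, 1310 with the sort as a block, 246 with no filter on dim probes and 0 to 258 with an array or sort left out. With the sort block the same settings gave 1371 (789 higher and 582 lower, against 600 and 710 with the block alone), 1221, 1919, 1275, 1224 and 1550, and 142 to 452 with a sort left out (142 without sort 1 and 290 without sort 3). The median of the 9 uptake, efflux and storage genes, 0.09, was 0.22 within slide 3, -0.23 with the mean of all probes (also with the sort block) and -0.18 to 0.39 with an array or sort left out. The synthesis minus efflux difference, -0.72, was -0.35 with the mean of all probes (also with the block) and -0.99 to -0.49 with an array or sort left out. Fdft1 turned to 0.21 with the mean of all probes, with and without the block, where its second probe is not above background. Srebf1 turned to 0.086, 0.041 and 0.10 with median scaling, quantile normalization and the deposited table, with and without the block, to 0.033 without sort 1 and 0.050 without sort 3 in the blocked fit, and ranged from -0.13 to 0.11 with an array or sort left out. For the other changes the cause was not tested. No scaling moved the median of all genes past 0.09. All 32 members were well above background on all 6 arrays, although Lss and Hsd17b7 were dim, at percentiles 26.3 and 26.4 of level. Their differences of -0.68 and -0.78 were -0.49 and -0.60 with normexp background. The part of low signal in the size of the differences was not tested.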

Other observations

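Besides the genes named above, 4 of the other sterol genes passed the limma test only with the sort as a block, and they were named after their values were seen. Gpr183, the receptor through which cells follow gradients of 7α,25-dihydroxycholesterol, was at 2.63, 2.57 and 1.91 in Eomes-positive and at 1.13, 1.36 and 1.25 in Eomes-negative arrays. It was 2.18-fold higher (adjusted p = 0.0832, or 0.0486 with the block), and the groups did not overlap. Gramd1a, a carrier of cholesterol from the plasma membrane to the endoplasmic reticulum, differed by -0.90 (SE 0.34, adjusted p = 0.351, or 0.0209 with the block). Tmem97, a sterol-regulated membrane protein, differed by -0.62 (SE 0.26, adjusted p = 0.434, or 0.0383 with the block), and Cyb5b, a cytochrome b5, by -0.53 (SE 0.16, adjusted p = 0.239, or 0.0491 with the block). Gramd1a, Tmem97 and Cyb5b were lower in the Eomes-positive array of all 3 sorts.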
